A study of Homo sapiens with 8 samples.

Results

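The HOX genes encode homeodomain transcription factors that give cells their position along the body axis. They sit in 4 clusters, HOXA on chromosome 7, HOXB on 17, HOXC on 12 and HOXD on 2, and genes with the same number in different clusters (a paralog group) descend from 1 ancestral gene. Within a cluster, low-numbered genes are used anteriorly and early, and high-numbered genes posteriorly and late. Adult epithelia keep part of this pattern as a record of their origin. The genes described are the protein-coding rows of the count files whose GENCODE symbol is HOXA, HOXB, HOXC or HOXD and a number. Of the genes that fit this rule, 1 in HOXB is not reported here. The others number 38 of 58735 rows, with 11 in HOXA and 9 each in HOXB, HOXC and HOXD.

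RNA of 22Rv1 cells was sequenced in 8 libraries. 22Rv1 is a human castration-resistant prostate carcinoma line derived from a xenograft, so every library comes from 1 cell line. In the control group 4 libraries came from cells given DMSO, the solvent, and in the other group 4 came from cells given PCC0208017, which the submitters describe as an inhibitor of the kinase MARK3. With dose and duration not given in the sources used here, and no genetic loss of MARK3 included, effects through MARK3 and through other targets of the compound cannot be told apart. The labels do not say whether replicates were separate cultures, so p-values measure the spread between these libraries, which may be technical.

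Library totals ran from 12672817 to 13386143 counts in controls and from 13517289 to 21271127 in treated cells. Levels are CPM, counts scaled to the library total with edgeR's TMM factors, and changes are log2, inhibitor minus control, ± SE with n = 4 libraries a group. A gene was called at an adjusted p under 0.05 (edgeR's quasi-likelihood test, Benjamini-Hochberg over all 16452 tested genes). All 10 luminal prostate markers were detected, at a summed 3250 to 3320 CPM in controls and 2440 to 2540 CPM in treated cells. Among them 6 fell, including KLK3 and TMPRSS2, 1 rose (CDH1) and 3 did not pass. Over all tested genes 28.3% were lower. Of 12 markers of basal, stromal, endothelial and immune cells, COL1A1 alone had enough counts to test (11.3 CPM in controls, 18.0 in treated cells). The other 11 summed to between 0.235 and 0.713 CPM in controls and between 0.279 and 0.484 in treated cells, and CD3E and PECAM1 were at 0 throughout. In a bulk sample, more transcript per cell and more cells with the transcript cannot be told apart.

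22Rv1 cells carried transcripts of most HOXA, HOXB and HOXC genes and of almost none of the HOXD genes. Taking 1 CPM on average in either group as the minimum, 26 of the 38 genes were expressed, 10 of 11 in HOXA, 7 of 9 in HOXB, 8 of 9 in HOXC and 1 of 9 in HOXD. HOXB1, HOXD1, HOXD3, HOXD4, HOXD10, HOXD11 and HOXD12 had 0 counts in every library. A count of 0 allows a level of up to 0.211 to 0.237 CPM in 7 of the libraries and up to 0.141 CPM in the deepest, inhibitor replicate 2 (3 counts of the total, counting error only). HOXA11, HOXB2, HOXC5, HOXD8 and HOXD13 were detected at means from 0.176 to 0.732 CPM, below the minimum. Of HOXC5 exon bases, 67.3% are also exon of a same-strand gene model with 0 counts. Reads there may have been assigned to neither, so the HOXC5 level may be understated. HOXD9 lay at the minimum, with 1.002 CPM in treated cells.

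**Figure D1:**
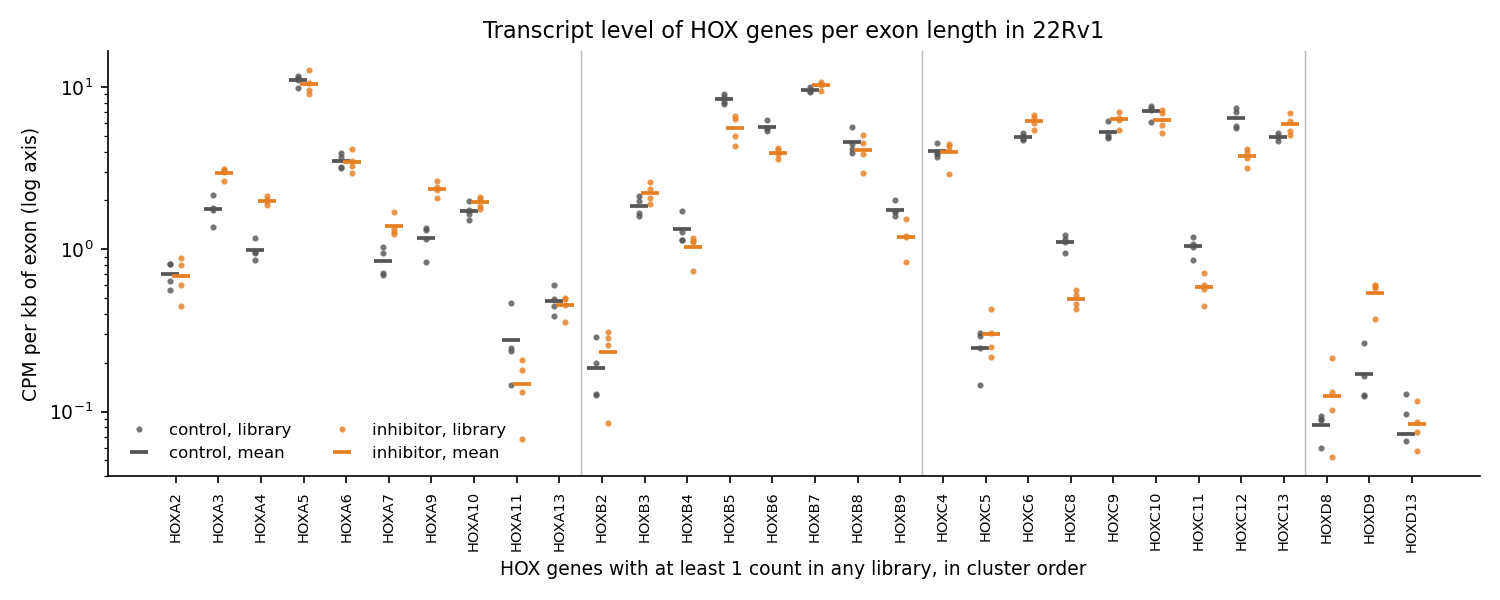
Mean level (bars) and single libraries (dots) of the HOX genes with counts, in CPM per kb of merged exon length on a log axis, control in grey and inhibitor in orange. Of the genes drawn, HOXA5 and HOXB7 stand highest and HOXD8 and HOXD13 lowest. A control library of HOXD13 at 0 cannot be drawn on this axis.

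Levels of different genes are compared per kb of exon. HOXA5, whose product patterns lung and thoracic tissue, was the highest of the genes described in controls, at 11.01 CPM per kb. HOXB7 (9.60), HOXB5 (8.44), HOXC10 (7.10), HOXC12 (6.45) and HOXB6 (5.70) followed. In treated cells the order at the top was HOXA5 (10.5), HOXB7 (10.2), HOXC9 (6.30), HOXC10 (6.27), HOXC6 (6.15) and HOXC13 (5.89), so HOXB5 (5.58), HOXB6 (3.93) and HOXC12 (3.74) had moved down. In that order HOXA5 and HOXB7, and HOXC9 (SD 0.670), HOXC10 (SD 0.903) and HOXC6 (SD 0.575), did not differ beyond their spread. Within clusters, the rank correlation of control level per kb with paralog number was 0.139 in HOXA (10 genes), 0.143 in HOXB (7) and 0.333 in HOXC (8). These points share libraries.

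Enough counts for a test were present in 25 HOX genes. Of these, 8 were higher in treated cells, 6 were lower and 11 did not pass, with a median change of −0.02. Over all tested genes, 58% were called, 29.8% higher and 28.3% lower, with a median change of 0.02. The share of HOX genes called was therefore near the background, and what the data describe is which genes moved and in which direction. The libraries of the groups did not overlap for 6 of the higher and all 6 of the lower HOX genes. Over all tested genes 51% did not overlap, 25.8% higher and 25.1% lower. The exceptions were HOXB3 and HOXC13, whose small rises are given with their clusters. With a change of at least 1 as well, 3 HOX genes were higher, among them HOXA4 and HOXA9 (4.24% of all tested genes), and 1 was lower, HOXC8 (6.09% of all).

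The direction differed by cluster. In HOXA 5 of 10 tested genes rose and 0 fell, in HOXB 1 rose and 3 fell of 7, and in HOXC 2 rose and 3 fell of 8. The median changes were 0.44, −0.35 and −0.09. The summed HOXA level went from 50.5 ± 3.88 to 62.7 ± 3.96 CPM (SD, n = 4), the HOXB sum from 77.4 ± 2.63 to 68.3 ± 5.91, and the HOXC sum from 92.9 ± 3.13 to 87.2 ± 7.55. Every treated library lay above every control in the HOXA sum and below every control in the HOXB sum, whereas the HOXC sums overlapped. The total over the 38 genes was 221 ± 3.02 CPM in controls and 220 ± 15.2 in treated cells. Sums cover the genes described, and a difference between clusters was not tested.

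**Figure D2:**
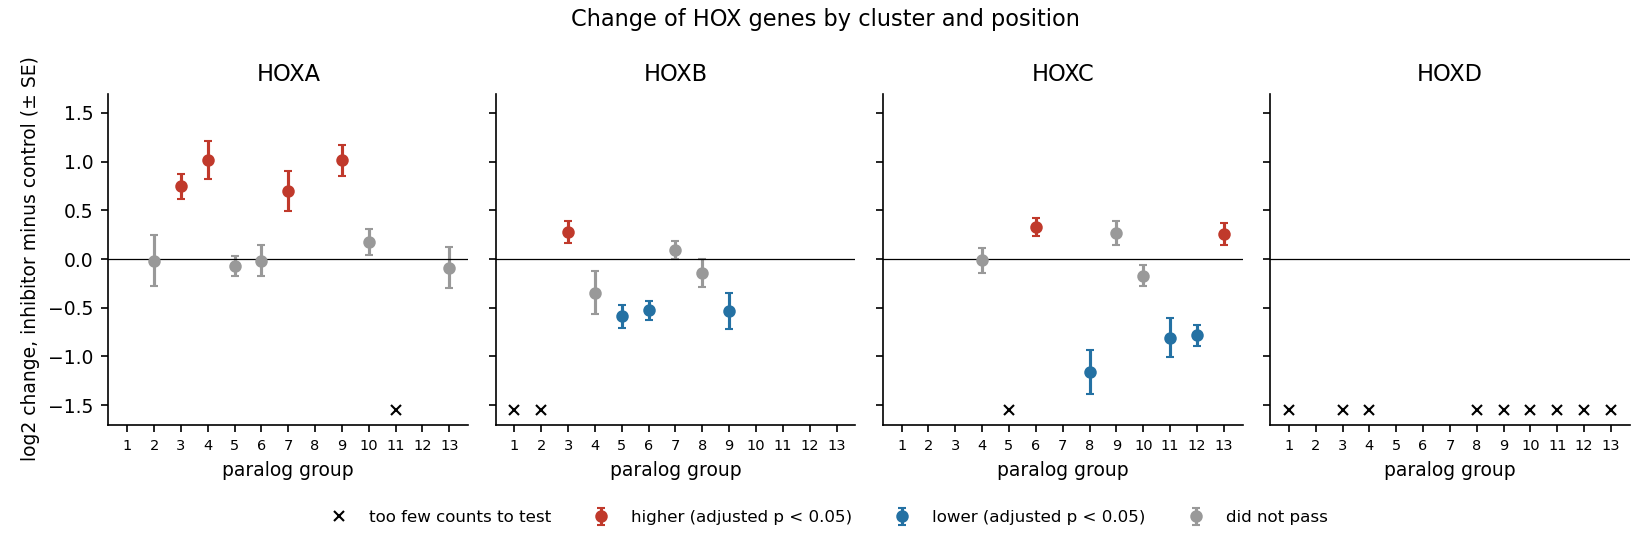
Log2 change (inhibitor minus control, ± SE, n = 4 a group) of HOX genes against their paralog group, 1 panel a cluster. Red genes were higher, blue lower and grey did not pass; crosses mark genes with too few counts to test and have no change value. In HOXA red points include groups 3, 4, 7 and 9, blue points lie in HOXB and HOXC, and HOXD holds crosses only.

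By position, rises lay in all 3 ranges of paralog groups compared, and falls in groups 4 to 13. In groups 1 to 3, 3 genes rose and 0 fell of 4 tested. In groups 4 to 8, 3 rose and 3 fell of 12, and in groups 9 to 13, 2 rose and 3 fell of 9. The rank correlation of change with paralog number was −0.467 in HOXA, −0.286 in HOXB and −0.214 in HOXC (10, 7 and 8 genes, which share libraries). Genes that moved were interleaved with neighbours that did not pass, which does not show that the latter were unchanged. The 95% interval of HOXB4, −0.80 to 0.10, includes the change of HOXB5. Intervals were apart for HOXA4 (0.61 to 1.42) and HOXA5 (−0.28 to 0.14), and for HOXB6 (−0.74 to −0.32) and HOXB7 (−0.10 to 0.28). In HOXC those of HOXC6 (0.14 to 0.52) and HOXC8 (−1.63 to −0.69) were apart, so no cluster changed as a block.

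Among the genes with enough counts for the main test, the largest rises were those of HOXA genes, while HOXA2, a regulator of hindbrain and branchial arch identity, did not pass, at 1.64 ± 0.293 and 1.60 ± 0.461 CPM.

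HOXA3, which acts in thymus, thyroid and parathyroid development (chromosome 7, 27106184 to 27152583, minus strand, hg38), was at 5.87, 7.68, 7.54 and 9.36 CPM in controls and 13.5, 13.3, 11.3 and 12.9 in treated libraries. The lowest treated value exceeded the highest control, and the change was 0.75 ± 0.13 (adjusted p = 1.72e-05). HOXA4 (27128507 to 27130780) stood at 1.49, 1.66, 1.64 and 2.03 CPM in controls and 3.42, 3.69, 3.22 and 3.46 in treated libraries. The groups were far apart relative to their spread, with a change of 1.02 ± 0.20 (adjusted p = 9.89e-05). Exons of the opposite strand cover 17.3% of HOXA3, 16.5% of HOXA4 and 39.3% of HOXA6 exon bases. The next genes along the chromosome, HOXA5 and HOXA6, did not pass, at −0.07 ± 0.10 and −0.02 ± 0.16.

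HOXA7 (27153716 to 27157936) rose from 2.04 ± 0.410 to 3.35 ± 0.498 CPM (0.70 ± 0.20, adjusted p = 0.00497). Of its exon bases, 62.5% are also exon of the opposite-strand HOXA-AS3, at 1.67 and 2.06 CPM, and the strand setting of the counting is unknown here. HOXA9 (27162438 to 27175180), a regulator of blood stem cells and of limb and genital patterning that is well known as a leukaemia oncogene, was at 3.52, 4.12, 2.54 and 3.98 CPM in controls. Treated libraries had 8.02, 7.37, 6.23 and 7.05 CPM, all above every control (1.02 ± 0.16, adjusted p = 6.32e-06). HOXA9 was 2.02-fold higher, while HOXA10, the adjacent gene used in uterine and genital tract patterning, went from 6.40 ± 0.712 to 7.21 ± 0.586 CPM and did not pass (0.17 ± 0.13, 95% interval −0.10 to 0.45).

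The ratio of HOXA9 to HOXA10 within a library is free of library scaling. It was 0.625, 0.634, 0.413 and 0.543 in controls and 1.03, 0.970, 0.947 and 1.03 in treated libraries, with every treated value above every control. A read-through gene model joins HOXA10 and HOXA9 (ENSG00000257184) and covers 13.1% of HOXA9 and 9.9% of HOXA10 exon bases. Its row held 0 counts in every library, as did the row of the microRNA gene MIR196B, which lies inside a HOXA9 exon. Reads in shared bases may be assigned to neither gene, so a count of 0 does not show that these transcripts were absent. At the far end of the cluster, HOXA13, a limb and genital tubercle gene, was at 2.45 ± 0.447 and 2.28 ± 0.340 CPM and did not pass.

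Promoter windows from RefSeq (GRCh38.p14, 250 bases before to 50 after RefSeq's gene start) were found for 20 of the 38 genes. They cover 4 of the risen genes, all HOXA, 5 that did not pass and 11 that were not tested. Genes not in the table included HOXA5, HOXB2 to HOXB9, HOXC6, HOXC8 to HOXC13 and HOXD9. The upstream parts below show 3 risen HOXA genes and the neighbour HOXA6, which did not pass, on the minus strand, 5′ to 3′. Capitals mark matches on either strand to CCAAT and to CACGTG, the E-box bound by many basic helix-loop-helix factors. TATAAA is marked in HOXA3 alone, although HOXA9 also holds a match, at −150, left in lower case. Positions are counted from the gene start. The HOXA3 stretch lies between HOXA6 and HOXA7. It overlaps exons of the opposite-strand HOXA-AS3 and of a same-strand non-coding gene model with 0 counts. The HOXA4, HOXA9 and HOXA6 stretches overlap no exon.
HOXA3, −200 to −1, chr7:27152584-27152783: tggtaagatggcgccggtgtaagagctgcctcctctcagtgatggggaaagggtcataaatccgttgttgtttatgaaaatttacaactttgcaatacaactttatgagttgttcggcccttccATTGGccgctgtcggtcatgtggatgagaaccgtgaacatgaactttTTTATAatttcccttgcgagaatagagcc
HOXA4, −250 to −51, chr7:27130808-27131007: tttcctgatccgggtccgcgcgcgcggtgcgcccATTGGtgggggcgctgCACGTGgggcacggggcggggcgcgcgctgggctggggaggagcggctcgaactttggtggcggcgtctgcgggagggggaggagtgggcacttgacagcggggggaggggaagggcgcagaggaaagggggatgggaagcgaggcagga
HOXA9, −200 to −1, chr7:27165538-27165737: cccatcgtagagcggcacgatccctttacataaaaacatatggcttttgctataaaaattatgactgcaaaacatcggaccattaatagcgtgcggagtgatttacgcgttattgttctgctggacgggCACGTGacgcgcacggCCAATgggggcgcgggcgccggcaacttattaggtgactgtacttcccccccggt
HOXA6, −250 to −51, chr7:27147825-27148024: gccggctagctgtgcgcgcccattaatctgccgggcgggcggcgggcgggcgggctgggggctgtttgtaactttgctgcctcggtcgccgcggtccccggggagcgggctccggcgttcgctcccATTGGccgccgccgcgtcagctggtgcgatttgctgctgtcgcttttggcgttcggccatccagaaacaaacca

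CACGTG was present in the windows of HOXA4, HOXA7 and HOXA9, 3 of the 4 risen genes, in 0 of the 5 that did not pass and in 5 of the 11 not tested. Those not tested were HOXD1, HOXD3, HOXD10 and HOXD11, with 0 counts in every library, and HOXD13. Of 27305 RefSeq windows of this length, 7.4% hold CACGTG, against 40% of the HOX windows. CCAAT was in 17 of the 20 HOX windows against 35.7% of all, including windows of genes with 0 counts, and the windows of HOXC4 and HOXC5 are 1 sequence. TATAAA was in 4 of the 20 (12% of all), GGGCGG in 10 (44.6%), the PBX and HOX composite TGATTNAT in 2 (2.9%) and the MEIS hexamer TGACAG in 4 (15.9%). Of the 4 risen genes and the 5 that did not pass, CCAAT was in 4 and 5, and GGGCGG in 3 and 2. TATAAA was in 2 and 1, TGACAG in 1 and 2, and TGATTNAT in 0 and 1. A link between any motif and the calls was not tested. The canonical retinoic acid receptor direct repeat with a 5-base spacer and the canonical palindromic androgen response element were each in 1 window of all 27305 and in 0 of the HOX windows. Both strands were searched. The median number of CpG dinucleotides was 22.5 in a HOX window and 14 over all. These are matches of letters, not sites.

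The largest fall was in HOXC. HOXC8 (ENSG00000037965; chromosome 12, 54008985 to 54012769, plus strand), which patterns the thoracic skeleton and motor neurons, was at 2.98, 2.69, 2.30 and 2.81 CPM in controls and 1.115, 1.35, 1.26 and 1.04 in treated libraries. The groups were separate and the change was −1.16 ± 0.23 (adjusted p = 0.000105), a 2.23-fold lower level. HOXC8 shares no exon base with another counted gene. Its flanking genes HOXC6 and HOXC9 were not lower, and the ratio of HOXC6 to HOXC8 went from 6.38 ± 0.970 to 18.0 ± 2.42.

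HOXC11 and HOXC12, neighbours at the high-numbered end with no shared exon bases, also fell. HOXC12 (53954903 to 53958956), one of the posterior genes of the cluster, was in controls at 23.02, 24.2, 18.9 and 18.3 CPM. Treated libraries had 13.5, 12.99, 11.9 and 10.4 CPM, all below every control (−0.78 ± 0.11, adjusted p = 1.04e-06). HOXC11 (53973126 to 53977643) went from 3.40 ± 0.447 to 1.91 ± 0.359 CPM, again without overlap (−0.81 ± 0.20, adjusted p = 0.00152). Their ratio stayed at 0.162 ± 0.0177 in controls and 0.158 ± 0.0341 in treated libraries, with overlapping values.

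HOXC13, a regulator of hair and nail keratin genes and the next gene after HOXC12, did not fall. It was at 10.96, 11.8, 12.2 and 11.5 CPM in controls and 11.99, 14.5, 12.7 and 16.3 in treated libraries, which overlapped, and the rise of 0.26 ± 0.11 (adjusted p = 0.0459) ended with DESeq2, limma-voom, RLE scaling, no filter or the loss of any of 6 libraries (adjusted p up to 0.196). Without inhibitor replicate 4 the change was 0.18. The ratio of HOXC12 to HOXC13 separated the groups, from 1.82 ± 0.296 to 0.899 ± 0.203. HOXC6, reported as raised in prostate carcinoma, rose from 17.0 ± 0.711 to 21.3 ± 1.99 CPM without overlap (0.33 ± 0.09, adjusted p = 0.00318). HOXC6 and HOXC4 share 484 exon bases, 14% of HOXC6 and 17.5% of HOXC4, and HOXC4 did not pass (−0.02 ± 0.12). HOXC9 (0.27 ± 0.12, adjusted p = 0.0598) and HOXC10 (−0.17 ± 0.11) did not pass either. The HOXC9 change passed under total-count and upper-quartile scaling, with an adjustment for GC content, and when control replicate 4 or inhibitor replicate 3 was omitted (adjusted p 0.0109 to 0.0386).

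In HOXB the falls lay in paralog groups 5, 6 and 9. HOXB5 (chromosome 17, 48591257 to 48593779, minus strand), a regulator of gut innervation and vascular progenitors, was at 15.1, 14.7, 16.9 and 16.1 CPM in controls and 8.02, 11.8, 9.32 and 12.3 in treated libraries. The groups were separate (−0.59 ± 0.12, adjusted p = 0.000168), with the wider spread among treated libraries. HOXB6 (48595751 to 48604992) had 13.9, 14.6, 16.4 and 14.5 CPM in controls and 9.41, 10.97, 10.02 and 10.6 in treated libraries, again separate (−0.53 ± 0.10, adjusted p = 9.49e-05). HOXB5 and HOXB6 stood at a ratio of 1.06 ± 0.0485 in controls and 1.01 ± 0.141 in treated libraries. HOXB6 shares 16.6% of its exon bases with HOXB3 and 16.3% with the opposite-strand HOXB-AS3.

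HOXB9 fell from 4.54 ± 0.471 to 3.08 ± 0.729 CPM without overlap (−0.54 ± 0.18, adjusted p = 0.0147), a call that ended without control replicate 2 (adjusted p = 0.0536). HOXB7, a gene linked to proliferation of carcinoma cells, did not pass, at 14.6 ± 0.493 and 15.6 ± 0.786 CPM (0.09 ± 0.09, 95% interval −0.10 to 0.28). Per kb it was the most highly expressed of the HOXB genes described. The ratio of HOXB6 to HOXB7 was 1.02 ± 0.103 in controls and 0.658 ± 0.0274 in treated libraries, without overlap. HOXB8 (−0.15 ± 0.14) and HOXB4 (−0.35 ± 0.22), known for expanding blood stem cells, did not pass. HOXB3 was at 15.7, 14.7, 12.5 and 11.9 CPM in controls and 15.3, 17.5, 19.3 and 14.04 in treated libraries. Its rise of 0.28 ± 0.11 (adjusted p = 0.04) came with overlapping libraries and ended with DESeq2 (adjusted p = 0.107) and when control replicate 3, control replicate 4, inhibitor replicate 2 or inhibitor replicate 3 was left out, with an adjusted p of up to 0.178 and a change as low as 0.19.

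**Figure D3:**
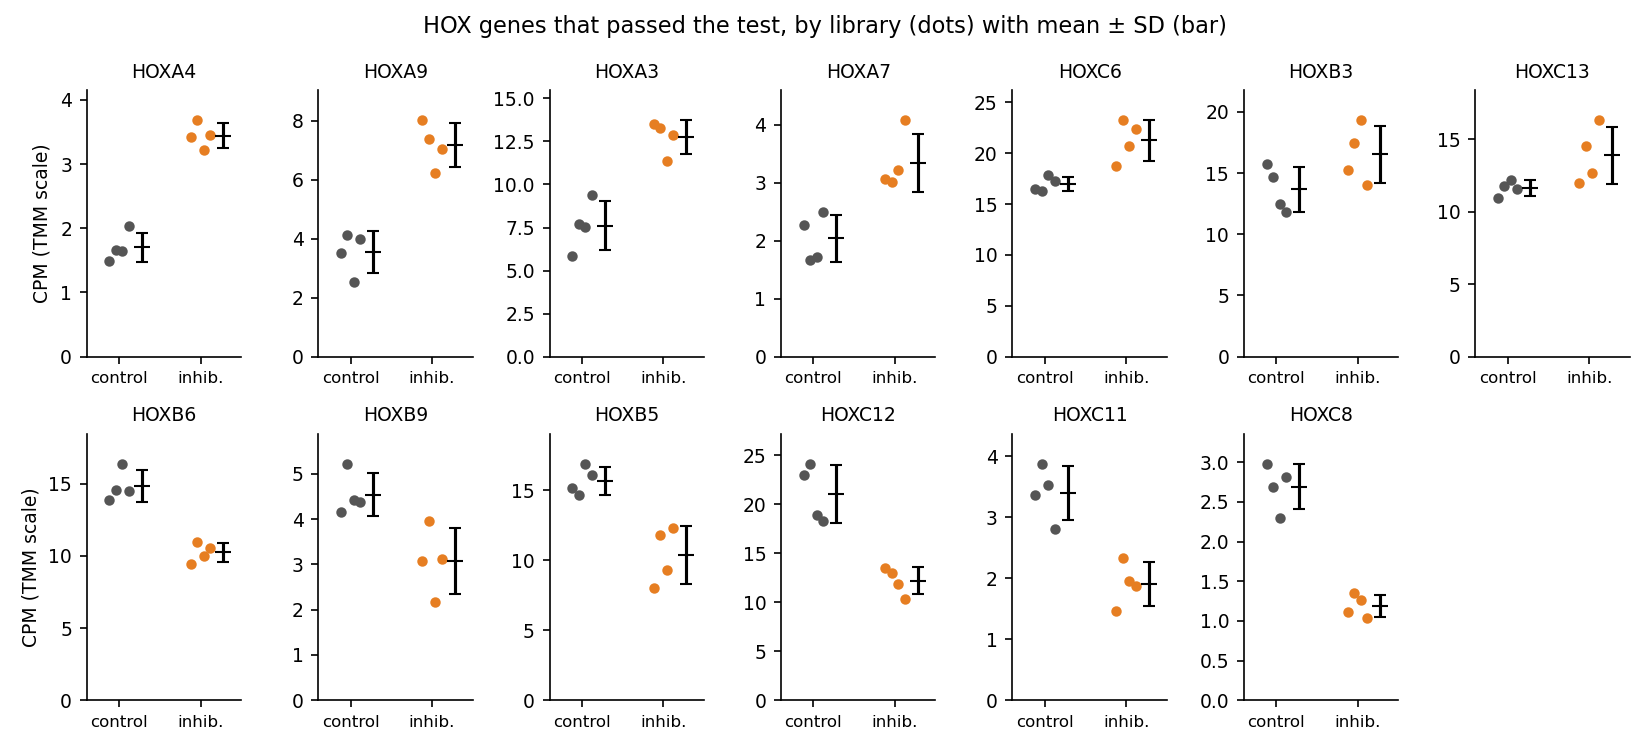
CPM (TMM scale) of 13 HOX genes that passed the test, with 1 dot a library, control in grey and inhibitor ("inhib.") in orange, and a black bar for mean ± SD. Panels run from HOXA4, the most raised of those drawn, to HOXC8, the most lowered; of these only HOXB3 and HOXC13 have overlapping groups.

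Across neighbours that were tested, 22 ratios within a cluster could be formed. In 6 the treated libraries all lay above the controls, in 6 all below, and in 10 the groups overlapped. The share for neighbouring genes elsewhere was not computed, so these counts have no background. Ratios whose groups overlapped included HOXA3 to HOXA4, HOXA7 to HOXA9, HOXB5 to HOXB6 and HOXC11 to HOXC12, pairs in which both genes moved the same way. The other overlapping ratios were HOXA5 to HOXA6, HOXA10 to HOXA13, HOXB3 to HOXB4, HOXB4 to HOXB5, HOXB7 to HOXB8 and HOXB8 to HOXB9. In each of these a gene did not pass. Called genes of a paralog group went in opposite directions in groups 6 and 9. In group 9 HOXA9 rose, HOXB9 fell and HOXC9 did not pass. In group 6 HOXC6 rose, HOXB6 fell and HOXA6 did not pass. In group 3 both HOXA3 and HOXB3 rose, and in group 5 HOXB5 fell and HOXA5 did not pass.

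The HOXD cluster was near silent apart from HOXD9. HOXD9 (chromosome 2, 176122719 to 176124937, plus strand), whose product patterns the forelimb and lumbar skeleton, had 3, 3, 6 and 4 counts in control replicates 1 to 4 and 16, 24, 16 and 10 in inhibitor replicates 1 to 4. On the CPM scale this is 0.319 ± 0.121 against 1.002 ± 0.208, with separate groups. It had too few counts for the main test. Without the filter its change was 1.63 ± 0.45 (edgeR adjusted p = 0.00139), and DESeq2 gave 1.64 ± 0.55 (adjusted p = 0.00861). It entered the fit, and was called, when any of the control libraries or inhibitor replicate 4 was left out, each time through its level in treated cells. The adjacent HOXD8 had 2 to 3 counts in controls and 2 to 8 in treated libraries, and HOXD13 had 0 to 4 and 2 to 4. HOXA11 (−0.96 ± 0.47), HOXB2 (0.33 ± 0.47) and HOXC5 (0.26 ± 0.52), likewise tested only without the filter or with DESeq2, did not pass in either (adjusted p 0.128 to 0.788).

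Transcripts of the long non-coding genes in the clusters, many of which lie on the other strand, were counted beside the HOX genes. Of 19 in the files, 8 had enough counts, 1 rose, 3 fell and 4 did not pass (median −0.37, against 0.02 over all tested genes). Of all tested genes 29.8% were higher and 28.3% lower. HOTAIRM1, a regulator of HOXA genes in myeloid cells that lies at the low-numbered end of that cluster, was at 1.57, 1.35, 1.31 and 2.34 CPM in controls and 4.04, 5.21, 3.36 and 3.66 in treated libraries. It rose without overlap (1.32 ± 0.22, adjusted p = 1.41e-05). HOXA-AS2, which shares bases with HOXA3 and HOXA4, did not pass (0.46 ± 0.21, adjusted p = 0.0605), nor did HOXA-AS3 (0.30 ± 0.23).

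In HOXC, HOTAIR, which lies on the other strand between HOXC12 and HOXC11, reaches into the HOXC11 gene and is known for binding Polycomb proteins, went from 1.63 ± 0.317 to 0.876 ± 0.133 CPM (−0.91 ± 0.28, adjusted p = 0.00687). HOXC-AS3, opposite the start of HOXC10, went from 2.51 ± 0.601 to 1.10 ± 0.143 CPM (−1.16 ± 0.25, adjusted p = 0.000265). HOXB-AS3 went from 3.99 ± 0.345 to 2.46 ± 0.711 CPM (−0.69 ± 0.20, adjusted p = 0.00412). Each of these 3 fell without overlap between the groups. HOXA10-AS, HOTTIP, HOXB-AS1 and HOXC13-AS were too low to test, at means of at most 0.560 CPM. HAGLR, HAGLROS, HOXD-AS2 and HOXB-AS4 had 0 counts in every library.

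HOX proteins bind DNA together with homeodomain partners of the PBX, MEIS and PKNOX families. Of 14 tested genes in the list of these, related TALE homeodomain genes, PBXIP1 and FOXA1, 9 rose, 4 fell and 1 did not pass (median 0.36). Over all tested genes 29.8% were higher and 28.3% lower. Among the partner genes themselves, PBX3 (0.42 ± 0.10), PBX4 (1.01 ± 0.24), MEIS1 (0.49 ± 0.15), MEIS2 (2.16 ± 0.38), MEIS3 (0.48 ± 0.18) and PKNOX1 (0.29 ± 0.07) rose. PBX4, MEIS1, MEIS3 and PKNOX1 were named after their values were seen. PBX2 fell, from 55.3 ± 2.61 to 39.1 ± 2.79 CPM (−0.50 ± 0.07, adjusted p = 1.75e-06). MEIS2 was low throughout, at 0.258 ± 0.0974 and 1.19 ± 0.100 CPM, and was tested because of its level in treated cells. PBXIP1, which encodes a PBX-interacting protein, rose from 63.9 to 148 CPM (1.21 ± 0.06, adjusted p = 2.60e-14), and TGIF1 rose (0.59 ± 0.10). The Iroquois genes IRX3, from 413 ± 40.0 to 101 ± 4.18 CPM (−2.03 ± 0.07, adjusted p = 3.21e-18), and IRX5 (−0.79 ± 0.07) fell, as did the repressor gene TGIF2 (−1.02 ± 0.08).

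**Figure D4:**
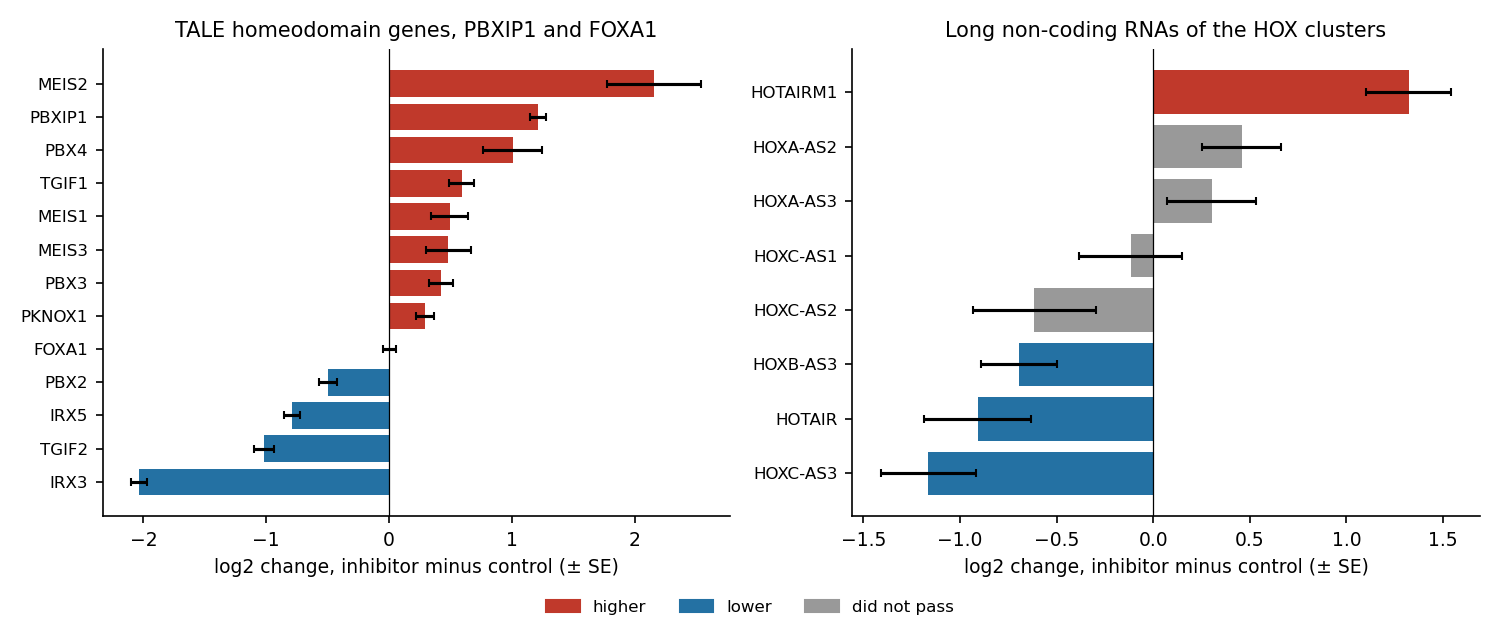
Log2 change (inhibitor minus control, bars, ± SE, n = 4 a group) of tested TALE homeodomain genes with PBXIP1 and FOXA1 (left) and of the tested long non-coding RNAs of the HOX clusters (right). Red bars were higher, blue lower and grey did not pass. MEIS2 and HOTAIRM1 are the largest rises, and IRX3 and HOXC-AS3 the largest falls.

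Genes beside the clusters moved in both directions. EVX1, a homeobox gene beyond the HOXA13 end of the HOXA cluster, was at 3.76, 2.85, 2.71 and 2.65 CPM in controls and 0.627, 0.899, 0.560 and 1.24 in treated libraries, all below (−1.82 ± 0.26, adjusted p = 1.82e-06). EVX1 was tested because of its level in controls. SKAP2, beyond the low-numbered end of HOXA, rose (0.45 ± 0.06), as did SNX10 further out (1.23 ± 0.11). CALCOCO1, on the HOXC13 side of HOXC, rose (1.004 ± 0.06), and CBX5, further out beyond HOXC4, fell (−0.65 ± 0.07). Over the 21 tested flanking genes 9 rose, 7 fell and 5 did not pass (median 0.15), against 29.8% higher and 28.3% lower over all tested genes.

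Polycomb complexes keep HOX genes silent and Trithorax complexes keep them active. Of 47 tested genes of these complexes and their partners, 12 rose, 14 fell and 21 did not pass (median −0.03). The share called was near that over all tested genes, 29.8% higher and 28.3% lower. The demethylase gene KDM5B (1.08 ± 0.07), MLLT3 (1.05 ± 0.07), BMI1 (0.81 ± 0.07) and JARID2 (0.85 ± 0.09) rose. RBBP4 (−0.75 ± 0.05), WDR5 (−0.54 ± 0.06), the H3K79 methyltransferase gene DOT1L (−0.50 ± 0.07) and PHF19 (−0.64 ± 0.09) fell. The core Polycomb genes EED and SUZ12 and the activator KMT2A, named after their values were seen, did not pass, and the methyltransferase gene EZH2 fell slightly (−0.21 ± 0.06, adjusted p = 0.00369).

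Retinoic acid and CDX factors are the classic upstream inputs of HOX genes. Of 22 genes listed, 12 were tested, 2 rose, 7 fell and 3 did not pass (median −0.31). The shares over all tested genes were 29.8% higher and 28.3% lower. The orphan receptor gene NR2F2 (−0.61 ± 0.06), the retinaldehyde reductase gene DHRS3 (−0.54 ± 0.08), the receptor gene RARG (−0.32 ± 0.07) and GMNN (−0.30 ± 0.07) fell. ALDH1A1, which encodes a retinaldehyde dehydrogenase, rose (0.65 ± 0.09), as did RXRB (0.31 ± 0.06). CDX1, CDX2 and CDX4 had 0 counts in every library.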

How the data were processed

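Whole-number gene counts, 1 table a library, are what the authors deposited. The submitters' processing notes, like the series text, name alignment to hg38, featureCounts and DESeq2, with aligner, annotation, versions and strand setting not given in the sources used here. Reads over exons of 2 genes may be assigned to either or neither, so exon overlaps from GENCODE release 44 (hg38) are given. Members, lists and motifs were chosen with earlier results of these data known. Of 58735 rows, 58207 had a GENCODE symbol. 1 gene of the HOXB cluster, and the values of some other genes that the counts include, are not reported here.

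The test used edgeR 4.0.16 under R 4.3.3 (filterByExpr, TMM, robust glmQLFit, glmQLFTest on the group), checked on simulated data. The SE of a change is its absolute value over the square root of F. The common biological coefficient of variation was 7.2%, and the median SE was 0.13 for the 25 HOX genes and 0.10 over all genes. Intervals are 95% from the same fit. Named were all HOX genes at 1 CPM or called, and from each list up to 4 called genes a direction with the smallest p, plus overlapping non-coding genes, with other names stated as such.

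Alternative fits used other scalings (RLE, upper quartile, total counts), other filters (none, or 1 CPM in 4 libraries), DESeq2 1.42.0, limma-voom (limma 3.58.1), no robust step, a replicate block, offsets for transcript GC content (rho with the change −0.196 across genes), and every library omitted in turn. Other thresholds were an adjusted p under 0.01, a log2 change of at least 1, and levels of 0.5 CPM or 10 counts.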

Additional observations from a re-analysis of the deposited data

Results flagged for a closer look

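In 2 of 52 sets of 4 libraries (26 HOX genes, 2 groups), 1 library stood apart from the other 3 by more than Dixon's 95% limit. Chance gives about 1 in 20. HOXB4 was at 1.47 CPM in inhibitor replicate 3, the next lowest treated library being at 2.23. HOXD9 was at 0.691 CPM in inhibitor replicate 4 and at 1.08 CPM or more in the other treated libraries, and its change without that library was 1.77 ± 0.41 (edgeR adjusted p = 0.000709).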

How the results depend on the processing

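The number of HOX genes called was 14, and 12 to 15 in every refit. It was 11 at an adjusted p under 0.01 and 4 with a log2 change of at least 1 (3 higher, 1 lower). With 1 library left out, 12 to 14 were called, 6 to 8 higher and 5 to 6 lower. HOXA3, HOXA4, HOXA7, HOXA9, HOXC6, HOXB5, HOXB6, HOXC8, HOXC11 and HOXC12 kept direction and call in every refit and at 0.01. The number expressed was 26, or 28 at 0.5 CPM. Signs turned only for genes that did not pass: under total counts HOXA2 (0.0904), HOXA5 (0.0325), HOXA6 (0.0858), HOXA13 (0.0183) and HOXC4 (0.0918), under upper-quartile scaling HOXA2 (0.01695), HOXA6 (0.0114) and HOXC4 (0.0168), and with GC offsets HOXA6 (0.14) and HOXC4 (0.0169). With 1 library left out, HOXA2 ran from −0.190 to 0.113, HOXA6 from −0.129 to 0.04485, HOXA13 from −0.178 to 0.0266 and HOXC4 from −0.0722 to 0.0802. The cause was not tested. Total counts moved the median of all genes from 0.02 to 0.13, with 6274 called higher and 3596 lower, against 4897 and 4652. Same-numbered replicates showed no shared deviation (correlations −0.0875 to 0.131, against −0.161 to 0.129 for differently numbered ones). These values cannot show whether the libraries were prepared as pairs. With the replicate block 14 HOX genes were called, 8 higher and 6 lower. Among genes with counts, low counts limit HOXD13, HOXD8, HOXC5, HOXA11, HOXB2 and HOXD9 most, at 22 to 82 counts over all libraries. HOXA2, which was tested, had 191.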
